A study of Homo sapiens with 16 samples.

Results

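Hyaluronan is a long sugar polymer of the extracellular matrix, and 10 genes that make, bind or cut it were followed here through a model of malignant transformation in human fibroblasts. They were chosen by role: the 3 hyaluronan synthases HAS1, HAS2 and HAS3, the receptors CD44 and HMMR, the matrix partners VCAN and TNFAIP6, and CEMIP, HYAL2 and HYAL3, which act in its breakdown. The choice was made with earlier results of the same data known, but no measured value or threshold was recorded as its basis, so the values below describe these genes and none of the comparisons counts as independent support for the choice. The 10 genes are 10 of 34451 genes, of which 19356 are protein-coding, for which transcript values could be summed.

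RNA was sequenced from 4 isogenic stages of BJ cells, a human fibroblast cell line: primary BJ cells, cells immortalized with hTERT, cells that carry hTERT and SV40 (transformed), and cells that carry hTERT, SV40 and Ras-G12V (metastasizing). Each stage was grown for 6 passages either at atmospheric oxygen or at 3% oxygen, with 2 plates per condition, hence 8 groups of 2 libraries and 16 libraries in all. All 4 stages share the BJ background, and each later stage also carries what was added before it. Each stage is a single cell line, so what was added at a stage cannot be told apart from anything else that changed while that line was made.

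Hyaluronan is polymerized at the plasma membrane from UDP-glucuronic acid and UDP-N-acetylglucosamine, and the growing chain is pushed directly out of the cell. Fibroblasts are among its main producers, and the amount in tissue is set by synthesis, by proteins that bind and cross-link it, and by hydrolysis. CD44 is the best known cell surface receptor, and its extracellular stem can be lengthened by alternative splicing of a block of variable exons.

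Expression is given in TPM, the transcript abundance scale of the deposited table, which is relative to transcript length and to all other transcripts of the library, so that levels of different genes can be set side by side. TPM holds no read counts, and the depth behind each value is therefore unknown. Differences are on the log2(TPM + 0.5) scale, which understates the change of genes with low TPM, with the standard error (SE) and the adjusted p of 1 limma fit over all 16 libraries. A gene was called when its adjusted p was under 0.01 and it differed by more than 2-fold on that scale. Means are given ± SD with n = 2 throughout, and the p-values measure the spread between plates of the same line only.

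A check of the labels found TERT at 0 to 0.543 TPM in the primary libraries and at 31.6 to 193 TPM in all later ones. HRAS stood at 94.6 and 78.1 TPM in the libraries labelled metastasizing at atmospheric oxygen, below the 120 and 99.0 TPM of transformed cells, and at 143 and 772 TPM in those labelled metastasizing at 3% oxygen, above the 49.4 and 61.8 TPM of transformed cells. At atmospheric oxygen summed HRAS was therefore not higher in the cells with added Ras-G12V, and the name "labelled metastasizing" is kept for this stage. Summed TPM does not tell the Ras-G12V allele from the normal one. The study reported that its cell authentication, made from variants in the sequenced RNA, bore out the mutations of the stages. Among genes of at least 1 TPM, 11.0% differed more than 2-fold between both libraries labelled metastasizing at 3% oxygen, against 1.83% to 4.08% in the other groups. All 12 fibroblast markers exceeded 1 TPM in every library, and their summed level ranged from 4077 to 23604 TPM. Keratinocyte markers (KRT5, KRT14 and TP63) summed to 1.05 TPM at most, the 3 endothelial markers found to 0.866 TPM at most and melanocyte markers to 5.02 TPM at most, with TYR at 0 in every library. Blood markers summed to 43.3 to 165 TPM, of which CD68 held 42.4 to 162 TPM while CD3E was at 0. The 5 epithelial markers summed to 120 to 678 TPM. Of these KRT18 held 85.4 to 645 TPM, KRT19 0.0637 to 203 TPM and KRT8 8.93 to 67.3 TPM. CDH1 did not exceed 2.80 TPM and EPCAM did not exceed 1.44 TPM. The part of these genes in the results below was not tested.

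On GRCh37 (GENCODE 44), HAS1 spans chr19:52216365-52227244, HAS2 chr8:122624356-122653680, HAS3 chr16:69139556-69152622, CD44 chr11:35160429-35253949, TNFAIP6 chr2:152214106-152236560 and CEMIP chr15:81071684-81244117. HMMR and VCAN share a chromosome, with HMMR at chr5:162887209-162918947 and VCAN at chr5:82767437-82878122, and so do HYAL2 and HYAL3, with HYAL2 at chr3:50355221-50360213 and HYAL3 at chr3:50330262-50336836. HYAL3 overlaps IFRD2 and NAA80 on the same strand and HYAL2 overlaps TUSC2 on the same strand, while HAS3 overlaps CHTF8 and DERPC, and CEMIP overlaps MESD and ENSG00000259649, on the opposite strand. The library kit keeps strand, but quantification was run with default settings, which do not use it. Reads from overlapping genes on opposite strands are therefore not told apart by strand, and values of HAS3 and CEMIP are uncertain to that extent. The same holds for HAS2, CD44, HMMR and VCAN, which overlap annotated antisense genes without values here (HAS2-AS1, CD44-DT and CD44-AS1, HMMR-AS1 and VCAN-AS1). For HYAL2 and HYAL3, whose overlaps lie on the same strand, strand could not separate the reads, and their values are uncertain as well.

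**Figure D1:**
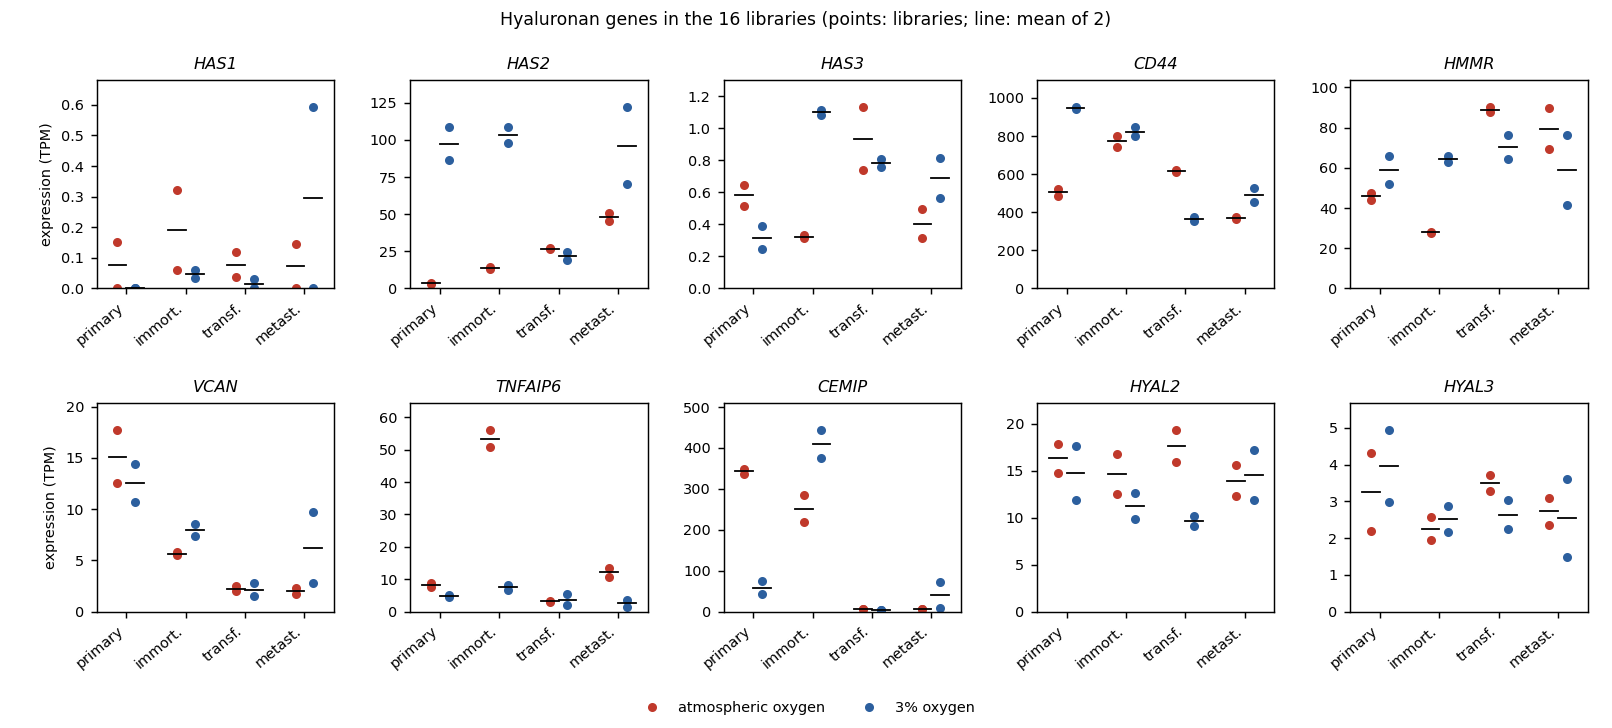
Expression in TPM (y axis, linear and starting at 0) of the 10 genes in the 4 stages (x axis, shortened names). Each point is a library, red at atmospheric and blue at 3% oxygen, and each line is the mean of 2 libraries. HAS2 at 3% oxygen stands near 100 TPM in primary and immortalized cells and near 22.2 TPM in transformed cells.

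HAS2 was the dominant synthase, and its levels at the 2 oxygen levels lay far apart in primary and immortalized cells but not in transformed cells. It held 83.1% and 84.6% of the summed synthase TPM in the primary libraries at atmospheric oxygen and 95.2% to 99.7% in all others. HAS1 did not exceed 0.592 TPM in any library and was listed at 0 in 6 of 16, and HAS3 ranged from 0.245 to 1.13 TPM. HAS1 was therefore not tested in any comparison, and HAS3 only where immortalized cells at 3% oxygen, at 1.11 and 1.08 TPM, brought its mean above 1 TPM.

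In primary cells HAS2 stood at 3.17 and 3.67 TPM at atmospheric oxygen and at 109 and 86.2 TPM at 3% oxygen. The means were 3.42 ± 0.351 and 97.4 ± 15.8 TPM, a difference of 4.64 on the log2 scale (SE 0.222). This comparison was among the results known when the genes were chosen, so it is described without a p. When only the 4 libraries compared were fitted, limma called 0 of 12184 genes, with 4838 at an unadjusted p under 0.05, so that fit holds no call for HAS2 either. In immortalized cells both libraries at 3% oxygen, at 109 and 97.8 TPM, again lay far above the 14.2 and 13.0 TPM at atmospheric oxygen, and HAS2 rose by 2.88 (SE 0.222, adjusted p = 2.66e-05).

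In transformed cells the order was the other way round and the difference small. HAS2 was at 27.1 and 26.5 TPM at atmospheric oxygen and at 24.8 and 19.5 TPM at 3% oxygen, a difference of -0.28 (SE 0.222) that missed the threshold (adjusted p = 0.362). In the libraries labelled metastasizing HAS2 stood at 45.1 and 50.9 TPM at atmospheric oxygen and at 122 and 70.3 TPM at 3% oxygen. The groups did not overlap, but the difference of 0.94 (SE 0.222, adjusted p = 0.00966) fell short of 2-fold on this scale, and it was 1.34 (adjusted p = 0.000367) without replicate b and 0.55 (adjusted p = 0.0472) without replicate a at 3% oxygen. It passed 2-fold, at 1.06 and 1.03, with median-ratio rescaling and quantile normalization.

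Over the 8 groups HAS2 was lowest in primary cells at atmospheric oxygen, followed by immortalized cells at atmospheric oxygen (13.6 ± 0.854 TPM), transformed cells at 3% (22.2 ± 3.77 TPM) and at atmospheric oxygen (26.8 ± 0.442 TPM) and cells labelled metastasizing at atmospheric oxygen (48.0 ± 4.10 TPM). The 3 highest groups, all at 3% oxygen, had means of 96.2 ± 36.6, 97.4 ± 15.8 and 103 ± 7.95 TPM and overlapped. At atmospheric oxygen the libraries of each stage thus lay above those of the stage before. The step from primary to immortalized cells was 1.85 and was called. It uses the primary libraries at atmospheric oxygen of the comparison already known, so it is given without a p. The steps of 0.95 (adjusted p = 0.00368) and 0.83 (adjusted p = 0.0245) that followed were not called. At 3% oxygen HAS2 fell by 2.20 from immortalized to transformed cells (adjusted p = 2.04e-05) and rose by 2.05 (adjusted p = 0.000161) from there to the cells labelled metastasizing, a call that was lost when only the 4 libraries compared were fitted (adjusted p = 0.119), a fit in which limma called 0 of 12288 genes, with 2378 at an unadjusted p under 0.05. The first step at 3% oxygen, from primary to immortalized cells, was 0.09 (SE 0.222), with overlapping libraries.

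Across the members, 1 of 8 tested was called between oxygen levels in primary cells, where 5.30% of all genes tested were called, and it was HAS2. That comparison was known when the genes were chosen, so this call is not a finding of the count. In immortalized cells 3 of 9 were called (4.91% of all genes), namely HAS2, HMMR and TNFAIP6. In transformed cells limma called 0 of 8 (7.48% of all genes), with 2 members, CD44 and HYAL2, at an unadjusted p under 0.05. In the libraries labelled metastasizing 1 of 8 was called (7.66% of all genes), TNFAIP6. With so few members these counts are a description, and their medians of 0.06, 0.46, -0.35 and 0.23 from the first to the last stage stood beside medians of 0.08, 0.11, 0.01 and -0.13 over all genes tested.

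**Figure D2:**
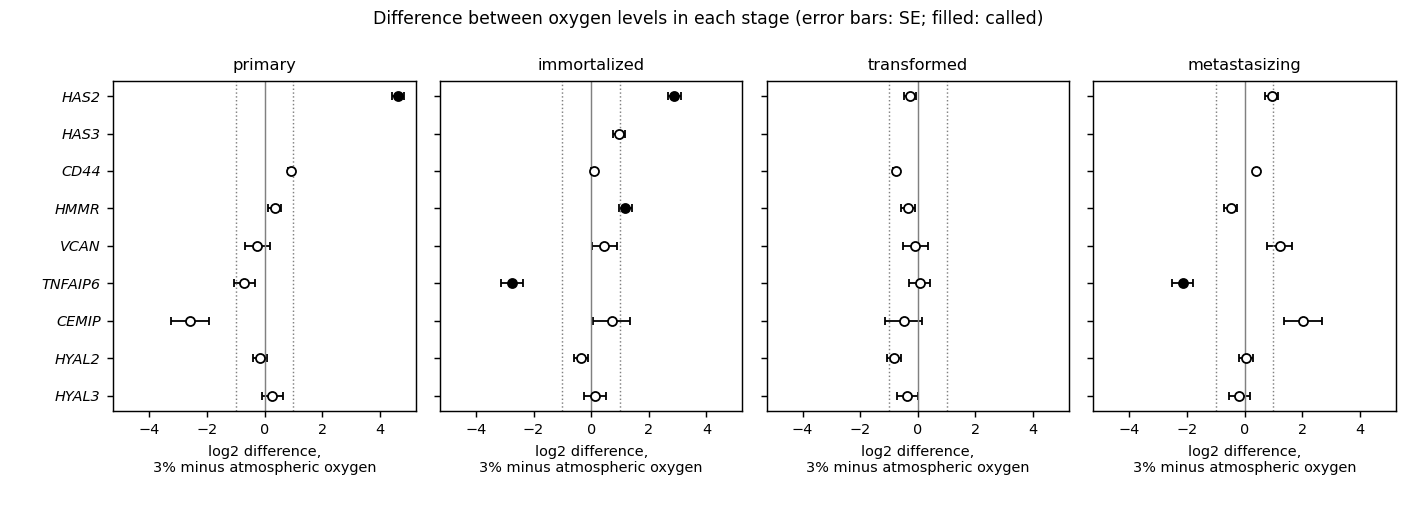
Difference between 3% and atmospheric oxygen for 9 genes (y axis) in each stage (panels), on the log2(TPM + 0.5) scale (x axis). Points are the fitted differences, error bars the SE, dotted lines mark 2-fold, filled points were called, and HAS3 is drawn only where it was tested. HAS2 stands at 4.64 in primary and 2.88 in immortalized cells and at -0.28 in transformed cells.

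CD44 was the most abundant member in every group, and it varied less than HAS2. Its libraries stood at 486 and 524 TPM in primary cells at atmospheric oxygen and at 942 and 951 TPM at 3% oxygen, and the difference was 0.91 (SE 0.0875, adjusted p = 7.02e-05). In immortalized cells the values were 800 and 743 TPM against 846 and 801 TPM, a difference of 0.09 (adjusted p = 0.457). In transformed cells they were 623 and 610 TPM at atmospheric and 374 and 354 TPM at 3% oxygen, a difference of -0.76 (adjusted p = 0.000144). The direction was thus opposite in primary and transformed cells, with groups that did not overlap, although neither difference reached 2-fold.

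In the libraries labelled metastasizing CD44 was at 374 and 366 TPM at atmospheric oxygen and at 452 and 529 TPM at 3% oxygen, a difference of 0.40 (adjusted p = 0.00664). The oxygen response of CD44 differed between transformed and metastasizing-labelled cells by 1.16 (SE 0.124, adjusted p = 0.000163), which was called and was lost when only the libraries compared were fitted (adjusted p = 0.0121). Between neighbouring stages CD44 fell by 1.18 (adjusted p = 1.99e-06) from immortalized to transformed cells at 3% oxygen, from 823 ± 31.7 to 364 ± 13.9 TPM. With quantile normalization this fall was 0.95 and no longer past 2-fold. In order of level, the groups ran from transformed cells at 3% oxygen and metastasizing-labelled cells at atmospheric oxygen, which overlapped, to primary cells at 3% oxygen, the highest at 947 ± 6.55 TPM.

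CD44 is annotated with 38 transcripts, and the deposited table resolves them. Of these, 33 reached 1 TPM and 15 reached 10 TPM in at least 1 library. The standard form, CD44-201, skips all 9 variable exons (v2 to v10 in the usual numbering), CD44-210 includes v10 and CD44-209 includes v8, v9 and v10, the form described as CD44v8-10. The sequences below join the last 20 bases of the constant exon before the block to the first 20 bases of the constant exon after it, as spliced on the plus strand of GRCh37 within chr11:35211593-35236418, with variable exons in capitals. They are shown because within this stretch the forms differ only by what lies between the same flanks. Outside it the annotated models differ too, with lengths of 4288 bases for CD44-201, 1634 for CD44-210 and 2292 for CD44-209. The part of those other differences in the values of each form was not tested. Of CD44-209 the run through v8 and v9 and the first 20 bases of v10 is given, after which this stretch continues as that of CD44-210 does.
CD44-201: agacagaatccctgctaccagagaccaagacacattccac
CD44-210: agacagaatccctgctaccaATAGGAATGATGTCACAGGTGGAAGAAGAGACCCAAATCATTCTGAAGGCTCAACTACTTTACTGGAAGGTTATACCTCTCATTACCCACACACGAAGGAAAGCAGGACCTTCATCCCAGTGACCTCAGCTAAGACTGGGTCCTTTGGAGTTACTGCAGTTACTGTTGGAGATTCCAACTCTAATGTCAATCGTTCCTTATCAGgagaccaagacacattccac
CD44-209, up to v10: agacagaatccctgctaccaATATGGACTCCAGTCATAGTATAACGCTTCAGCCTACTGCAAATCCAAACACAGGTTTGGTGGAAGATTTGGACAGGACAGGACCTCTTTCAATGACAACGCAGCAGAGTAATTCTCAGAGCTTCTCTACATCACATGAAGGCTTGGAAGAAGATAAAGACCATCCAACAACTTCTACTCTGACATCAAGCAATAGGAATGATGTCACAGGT

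The share of CD44-201 differed between oxygen levels in opposite directions in primary and transformed cells, and in each against the direction of its own TPM. In primary cells it was 69.5% and 58.8% of CD44 TPM at atmospheric oxygen and 46.1% and 49.3% at 3% oxygen. In transformed cells it was 36.1% and 35.6% at atmospheric oxygen and 51.3% and 54.9% at 3% oxygen, so that the libraries of both oxygen levels did not overlap in either stage. The TPM of CD44-201 was 338 and 308 at atmospheric and 434 and 469 at 3% oxygen in primary cells, and 225 and 217 at atmospheric and 192 and 194 at 3% oxygen in transformed cells. The shares therefore also carry the differences of the other transcripts. In immortalized cells the 4 libraries lay between 41.5% and 44.2%, and in those labelled metastasizing between 33.5% and 38.7%.

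By the ratio of highest to lowest TPM, CD44-209 had the widest range of the 3 forms shown, at the lowest level. In primary cells it stood at 3.84 and 6.75 TPM at atmospheric and at 25.3 and 26.8 TPM at 3% oxygen. In transformed cells it stood at 33.3 and 33.2 TPM at atmospheric and at 1.72 and 0.673 TPM at 3% oxygen. Immortalized cells held 10.2 to 14.6 TPM, and the libraries labelled metastasizing 12.6 and 14.2 TPM at atmospheric and 16.7 and 5.83 TPM at 3% oxygen. Both the highest and the lowest values of CD44-209 were therefore found in transformed cells, at opposite oxygen levels.

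CD44-210 differed in the same directions in both stages, with 23.0 and 32.9 TPM in primary cells at atmospheric oxygen, 84.5 and 95.9 TPM at 3% oxygen, and in transformed cells 73.0 and 80.8 TPM at atmospheric and 37.1 and 35.7 TPM at 3% oxygen. Over the 17 coding transcripts with a variable exon, their share of CD44 TPM was 8.96% and 15.9% in primary cells at atmospheric oxygen and 20.6% and 21.3% at 3% oxygen. In transformed cells the share was 27.8% and 28.9% at atmospheric and 19.2% and 15.3% at 3% oxygen. Most of these transcripts are short models that do not span both constant exons, such as CD44-212 with 352 bases. The sum is therefore not the share of full-length CD44 RNA that carries variable exons. CD44-208, which holds all 9 variable exons, was listed at or within rounding of 0 TPM in every library.

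Other CD44 transcripts moved beside these forms. CD44-207, which is annotated as a target of nonsense-mediated decay, ranged from 0.239 TPM in 1 primary library at atmospheric oxygen to 188 TPM in 1 immortalized library, and its replicates differed widely in primary cells. The 9 retained-intron transcripts of CD44 summed to 8.58 and 7.41 TPM in transformed cells at 3% oxygen and to 20.8 to 57.3 TPM in all other libraries, while retained-intron transcripts of all genes together made up 4.60% to 6.50% of a library. The part of the retained-intron forms in the differences above was not tested. The table holds a single estimate for each transcript and no error of the split between overlapping transcripts, so no test was made on single transcripts.

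**Figure D3:**
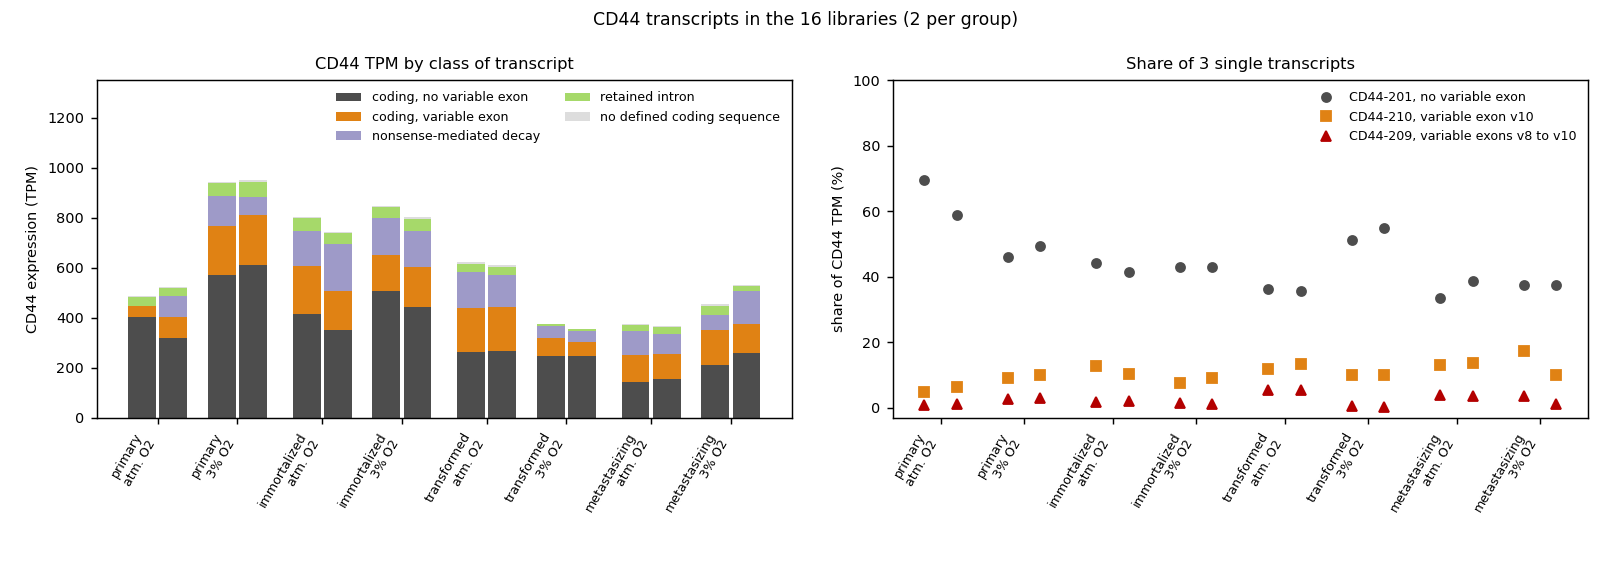
Left, CD44 expression in TPM (y axis) in the 16 libraries, stacked by class of transcript. Right, share of CD44 TPM in percent (y axis) held by CD44-201, CD44-210 and CD44-209 in the same libraries. The share of CD44-201 is lower at 3% oxygen in primary cells (46.1% and 49.3%) and higher at 3% oxygen in transformed cells (51.3% and 54.9%) than at atmospheric oxygen.

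HMMR encodes a hyaluronan-binding protein, also known as RHAMM, which in dividing cells is found on the mitotic spindle. It was lowest in immortalized cells at atmospheric oxygen, at 27.8 and 28.2 TPM, and stood at 63.0 and 66.0 TPM at 3% oxygen in the same stage. This difference of 1.19 (SE 0.231, adjusted p = 0.00379) was called, and it lost the call when any of the 4 immortalized libraries was left out (adjusted p from 0.0256 to 0.0311). From immortalized to transformed cells at atmospheric oxygen HMMR rose by 1.65 (adjusted p = 0.000121), to 87.6 and 90.1 TPM, the highest group. Elsewhere it ranged from 41.7 to 89.7 TPM and was not called.

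Markers of cell division moved beside HMMR. Of 10 proliferation genes, 3 were called higher at 3% oxygen in immortalized cells (median of the list 0.95, with 4.91% of all genes called) and 7 were called higher in transformed than in immortalized cells at atmospheric oxygen (median 1.51, with 24.3% of all genes called). Across the 8 group means HMMR had a correlation of r = 0.926 with the mean of these genes, the groups sharing the same lines and oxygen levels. For single genes of the list r ranged from 0.356 (MKI67) to 0.944 (BUB1). Their part in the HMMR differences was not tested.

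TNFAIP6 encodes TSG-6, a secreted protein that is induced in inflammation and transfers heavy chains of inter-alpha-inhibitor onto hyaluronan. It was by far highest in immortalized cells at atmospheric oxygen, at 56.0 and 50.7 TPM. At 3% oxygen the same cells held 6.79 and 8.25 TPM, a fall by 2.75 (SE 0.366, adjusted p = 0.000499). The libraries labelled metastasizing showed the same direction, from 10.8 and 13.4 TPM to 1.53 and 3.46 TPM, a fall by 2.14 (SE 0.366, adjusted p = 0.00178). That call was lost when only the 4 libraries compared were fitted (adjusted p = 0.0801), and it was also lost without replicate a at 3% oxygen (-1.66, adjusted p = 0.0110) or without either library at atmospheric oxygen (adjusted p = 0.0108 and 0.0189).

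In primary cells TNFAIP6 stood at 8.73 and 7.50 TPM against 4.46 and 5.05 TPM at 3% oxygen, groups that did not overlap but missed the threshold (-0.71, adjusted p = 0.175). In transformed cells it stood at 3.23 and 3.02 TPM against 1.99 and 5.27 TPM, with overlapping groups. At atmospheric oxygen TNFAIP6 rose by 2.65 (adjusted p = 0.000247) from primary to immortalized cells, fell by 3.89 (adjusted p = 6.30e-06) from there to transformed cells and rose by 1.79 (adjusted p = 0.00678) to the cells labelled metastasizing. The first and second of these calls held in all 26 other settings. The last held in 13 of 26, and leaving out 1 library ended it in 12 of 16 cases, with an adjusted p of up to 0.0595 without metastasizing-labelled replicate b.

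Inflammatory genes, as a list of 8, moved beside TNFAIP6 in immortalized cells, while the later stages showed other directions. At 3% oxygen 6 of the 8 were called lower in immortalized cells, with a list median of -2.57 (4.91% of all genes called). In transformed cells 4 were called higher (median 2.02, 7.48% of all genes called) and in those labelled metastasizing 2 were called higher (median 1.61, 7.66% of all genes called), where TNFAIP6 differed by 0.07 and -2.14. Replicates lay apart in transformed cells at 3% oxygen, where the list summed to 580 and 2937 TPM. At atmospheric oxygen it summed to 232 and 244 TPM in these cells. Across the 8 group means TNFAIP6 had a correlation of r = 0.520 with the mean of the list. The part of these genes in the TNFAIP6 differences was not tested. PTX3, a pentraxin that binds TSG-6 and heavy chains in the hyaluronan matrix, had its peak in the same group as TNFAIP6, with 898 ± 12.9 TPM in immortalized cells at atmospheric oxygen against 72.0 ± 21.2 TPM in primary and 48.0 ± 1.12 TPM in transformed cells. PTX3 rose by 3.66 and then fell by 4.21 over these steps (adjusted p = 1.02e-05 and 1.39e-06).

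VCAN encodes versican, a large chondroitin sulfate proteoglycan that binds hyaluronan through its end domain. Its level stepped down over the first 3 stages at both oxygen levels, from 17.7 and 12.6 TPM in primary cells at atmospheric oxygen to 5.50 and 5.78 TPM in immortalized and 1.97 and 2.48 TPM in transformed cells. These steps of -1.33 (adjusted p = 0.0349) and -1.18 (adjusted p = 0.0399) were not called. Without replicate a or b labelled metastasizing at 3% oxygen both passed, with adjusted p of 0.00270 to 0.00345. At 3% oxygen VCAN fell by 1.73 (SE 0.439, adjusted p = 0.00822) from immortalized to transformed cells, from 8.53 and 7.37 TPM to 2.79 and 1.47 TPM, a call that held in 9 of 26 other settings and in 2 of 16 when a single library was left out, those without a library labelled metastasizing at 3% oxygen.

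No difference between oxygen levels was called for VCAN in any stage. Of the libraries labelled metastasizing at 3% oxygen, replicate a held 9.70 TPM and replicate b 2.74 TPM, against 1.70 and 2.25 TPM at atmospheric oxygen. This difference of 1.23 (adjusted p = 0.0582) changed with the replicate, reaching 2.05 (adjusted p = 0.00106) without replicate b. Among its transcripts VCAN-203, which holds 1 of the 2 large glycosaminoglycan exons and corresponds to the V1 form, held the largest share of VCAN TPM in each group mean, from 50.8% to 68.7%. VCAN-201, which holds both, did not exceed 1.98 TPM.

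CEMIP, which encodes a secreted and endoplasmic reticulum protein needed for hyaluronan depolymerization in skin fibroblasts, was far lower in transformed than in immortalized cells. It stood at 350 and 336 TPM in primary and at 284 and 219 TPM in immortalized cells at atmospheric oxygen, and at 6.77 and 5.82 TPM in transformed cells. The fall from immortalized to transformed cells was 39.9-fold in the means at atmospheric oxygen (-5.20, SE 0.650, adjusted p = 5.17e-05). At 3% oxygen, where CEMIP went from 443 and 375 TPM to 4.15 and 4.51 TPM, it was 94.5-fold (-6.40, adjusted p = 2.14e-05). Both calls held in all 26 other settings.

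The oxygen difference of CEMIP in primary cells was large but depended on which libraries shared the fit. CEMIP stood at 74.2 and 43.1 TPM at 3% oxygen in primary cells, 5.84-fold below the mean at atmospheric oxygen (-2.59, SE 0.650), and the adjusted p of 0.0143 missed the threshold. Without both libraries labelled metastasizing at 3% oxygen it was 3.16e-05, and leaving out either of them alone gave 3.30e-05 or 3.29e-05. These libraries held 9.28 TPM (replicate a) and 71.8 TPM (replicate b) of CEMIP, against 6.16 and 5.85 TPM at atmospheric oxygen. The difference between these groups was 2.03 (adjusted p = 0.0379) and became 3.47 (adjusted p = 1.99e-05) without replicate a and 0.59 without replicate b.

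In immortalized cells CEMIP differed by 0.71 (adjusted p = 0.448) between oxygen levels, with 443 and 375 TPM at 3% oxygen above 284 and 219 TPM. From primary to immortalized cells at 3% oxygen it rose by 2.84 (SE 0.650, adjusted p = 0.00735). That call was lost in 14 of the 16 fits without 1 library and kept in those without a library labelled metastasizing at 3% oxygen, with an adjusted p of up to 0.0576 without primary replicate b at 3% oxygen. Fibroblast markers fell beside CEMIP, VCAN and CD44 at the same step, with 8 of 12 called lower in transformed than in immortalized cells at each oxygen level and list medians of -2.28 and -2.31, where 24.3% and 16.3% of all genes were called. Their part in these falls was not tested, and in a culture fewer cells of a kind and less RNA per cell cannot be told apart.

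Set against each other, the synthase HAS2 and CEMIP divided the libraries. CEMIP exceeded HAS2 by 91.5-fold and 110-fold in TPM in primary cells at atmospheric oxygen and by at least 16.8-fold in immortalized cells. At 3% oxygen the ratio of CEMIP to HAS2 was 0.683 at most in primary and 4.06 and 3.84 in immortalized cells. In all 4 transformed libraries and in 3 of the 4 labelled metastasizing HAS2 exceeded CEMIP, by 4.00-fold to 13.1-fold, and in the remaining one, replicate b at 3% oxygen, the ratio of HAS2 to CEMIP was 0.979.

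**Figure D4:**
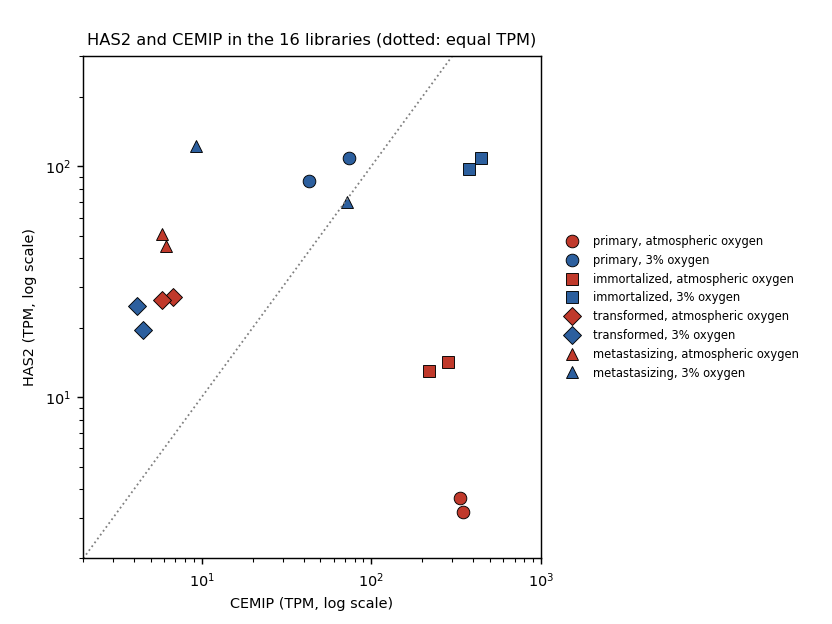
HAS2 (y axis) against CEMIP (x axis), both in TPM on log scales, with 1 point for each library, the shape giving the stage and the colour the oxygen level. The dotted line marks equal TPM, and the libraries of primary cells at atmospheric oxygen, with 3.17 and 3.67 TPM of HAS2, lie farthest below it.

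The hyaluronidases were found in every library. Replicates could lie far apart, as for HYAL3 at 2.19 and 4.30 TPM in primary cells at atmospheric oxygen. HYAL2, which cuts large hyaluronan at the cell surface, ranged from 9.10 to 19.3 TPM, and HYAL3, whose own activity is less clear, from 1.47 to 4.93 TPM. Neither was called in any of the 13 comparisons. The nearest was HYAL2 in transformed cells, with 19.3 and 15.9 TPM at atmospheric and 9.10 and 10.1 TPM at 3% oxygen (-0.83, SE 0.246, adjusted p = 0.0230).

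Counted over neighbouring stages, 2 of 8 members tested were called from primary to immortalized cells at atmospheric oxygen (12.2% of all genes tested), 3 of 8 from immortalized to transformed (24.3%) and 1 of 8 from transformed to metastasizing-labelled cells (4.12%). At 3% oxygen the counts were 1 of 9 (9.23%), 4 of 9 (16.3%) and 1 of 8 (5.92%). The first count at atmospheric oxygen includes HAS2, whose step shares libraries with the comparison known when the genes were chosen. The 4 called from immortalized to transformed cells at 3% oxygen, HAS2, CD44, VCAN and CEMIP, all fell, where 7.38% of all genes were called lower, and the median of the 9 members was -1.07 beside 0.11 over all genes. At that step the synthase, its most abundant receptor, a matrix partner and a depolymerizing protein were all lower in transformed cells. The VCAN call held in only 9 of 26 other settings, and that of CD44 was lost with quantile normalization. At atmospheric oxygen only CEMIP of these genes was called at this step. HAS2 differed by 0.95 there, CD44 by -0.32 and VCAN by -1.18, without a call.

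The 250 bases before the start of 3 of these 4 genes are shown because the genes fell together at that step, taken from RefSeq on GRCh38.p14, at chr11:35138921-35139170, chr5:83471494-83471743 and chr15:80779120-80779369, all on the plus strand. Letters in capitals match 1 of 3 motifs searched on both strands, the core ACGTG and GCGTG of hypoxia response elements and TGANTCA of AP-1. RefSeq promoters were matched for 9 of the 10 members.
CD44: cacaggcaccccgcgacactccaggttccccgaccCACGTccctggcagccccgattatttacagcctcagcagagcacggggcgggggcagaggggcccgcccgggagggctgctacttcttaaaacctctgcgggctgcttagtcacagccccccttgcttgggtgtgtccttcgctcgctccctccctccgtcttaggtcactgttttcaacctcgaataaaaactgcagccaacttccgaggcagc
VCAN: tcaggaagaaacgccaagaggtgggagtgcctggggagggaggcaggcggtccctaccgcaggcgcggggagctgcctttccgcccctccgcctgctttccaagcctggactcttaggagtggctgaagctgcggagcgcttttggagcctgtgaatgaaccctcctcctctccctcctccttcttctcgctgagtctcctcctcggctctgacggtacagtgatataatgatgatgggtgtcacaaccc
CEMIP: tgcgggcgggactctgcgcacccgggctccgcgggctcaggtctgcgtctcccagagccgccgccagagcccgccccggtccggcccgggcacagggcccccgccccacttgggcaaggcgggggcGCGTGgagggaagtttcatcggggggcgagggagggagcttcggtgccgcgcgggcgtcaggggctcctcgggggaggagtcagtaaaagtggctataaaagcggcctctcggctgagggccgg

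CD44 held ACGTG once, on the opposite strand, CEMIP held GCGTG once, and VCAN held none of the 3. Of 35116 promoters of this length in the table, 18.5% held ACGTG, 32.2% GCGTG and 6.57% TGANTCA, so single matches are common. TNFAIP6 held TGANTCA once and was the only one of the 9 matched members with this motif in the window. A match describes these letters and no binding was measured.

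The response to oxygen differed between neighbouring stages for some members. Between primary and immortalized cells 1 of 9 members tested differed (1.86% of all genes), HAS2, whose difference was 1.76 smaller in immortalized cells. It rests on the primary comparison already known and is given without a p, and its call held in 11 of 26 other settings and was lost in 12 of 16 fits without 1 library (-1.59 to -1.92). Between immortalized and transformed cells 3 of 9 differed (12.0% of all genes), HAS2 by -3.16 (SE 0.314, adjusted p = 7.44e-05), HMMR by -1.53 (SE 0.327, adjusted p = 0.00512) and TNFAIP6 by 2.82 (SE 0.518, adjusted p = 0.00222). Between transformed and metastasizing-labelled cells 1 of 8 differed (8.47% of all genes), CD44, as given above. For HMMR the call was lost in 7 of 16 fits without 1 library, with an adjusted p of up to 0.0216 without transformed replicate b at 3% oxygen, and for TNFAIP6 in 3 of 16, with an adjusted p of up to 0.0114.

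The other genes of the pathway give the setting of the 10 members, and were listed by role: 11 enzymes of precursor supply, 23 binding proteins and matrix partners, 7 genes of turnover and 7 partners of CD44. Of these 48 genes 32 were tested in at least 1 comparison. In primary cells 2 of 29 were called between oxygen levels (5.30% of all genes), a share near that of all genes, both higher and both in precursor supply: HK2, a hexokinase (12.9 ± 0.0883 to 41.6 ± 5.23 TPM), and PGM1, a phosphoglucomutase (34.6 ± 1.32 to 72.2 ± 0.219 TPM, 1.05, adjusted p = 0.00392). In immortalized cells 4 of 27 were called (4.91% of all genes). Among them UAP1, which makes UDP-N-acetylglucosamine, rose by 1.68 (29.8 ± 1.19 to 97.0 ± 6.15 TPM, adjusted p = 2.22e-05), and EZR, which links CD44 to actin, rose by 1.24 (adjusted p = 0.00187). MMP14, a protease that can shed CD44, fell by 1.22 (adjusted p = 0.00127).

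In transformed cells 5 of 30 were called (7.48% of all genes), all of them listed as binding proteins or matrix partners. TLR4, a receptor reported to sense hyaluronan fragments, rose by 2.24 (from 2.57 ± 0.137 TPM, adjusted p = 9.89e-06), and PTX3 rose by 1.58 (adjusted p = 0.00357), TLR2 by 1.08 (adjusted p = 0.00671) and BCAN by 1.20 (adjusted p = 0.00819), the last 2 at 2.42 TPM or less in each group mean. TLR2 and BCAN reached the filter of 1 TPM only through the 3% oxygen group, so both could enter the test only by being higher there, and BCAN was called in 7 of 25 other settings. C1QBP, a mostly mitochondrial protein also called hyaluronan-binding protein 1, fell by 1.21 (668 ± 13.1 to 288 ± 19.2 TPM, adjusted p = 9.89e-06). In the libraries labelled metastasizing 1 of 29 was called (7.66% of all genes), GFPT2, which commits fructose 6-phosphate to the hexosamine pathway, at 1.84 ± 0.645 and 22.9 ± 15.8 TPM (3.17, adjusted p = 0.000580). In immortalized cells all 10 precursor genes tested lay higher at 3% oxygen (median 0.53 beside 0.11 over all genes), though only UAP1 was called. Of all genes tested in that comparison 58.9% lay higher.

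Between neighbouring stages these genes were called 31 times, 16 higher and 15 lower, over 173 tests, where 4.12% to 24.3% of all genes were called in a comparison. UAP1 fell by 1.72 from primary to immortalized and rose by 2.53 from immortalized to transformed cells at atmospheric oxygen (adjusted p = 2.82e-06 and 8.20e-08). ADAM10, a sheddase of CD44, rose from primary to immortalized cells at both oxygen levels (by 2.00 at atmospheric oxygen) and fell from immortalized to transformed cells by 1.98 at atmospheric and 1.27 at 3% oxygen. From primary to immortalized cells at atmospheric oxygen HK1, a hexokinase, rose by 1.24 (adjusted p = 2.11e-05), ADAM17, a sheddase, rose by 1.04 (adjusted p = 1.36e-05) and ITIH3, a heavy chain of inter-alpha-inhibitor, fell by 3.28 (adjusted p = 0.000231). ITIH3 also fell at that step at 3% oxygen, by 2.88, where LAYN, the hyaluronan receptor layilin, rose by 1.10. The level of ITIH3 was low, between 0 and 6.89 TPM over all libraries, and its counting error is unknown. At 3% oxygen MSN, which like EZR links CD44 to actin, fell by 1.09 (adjusted p = 3.75e-06) at the step where CD44 fell. At atmospheric oxygen MMP14 and PTX3 rose into and fell out of the immortalized stage, as TNFAIP6 did, while EZR fell and then rose.

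**Figure D5:**
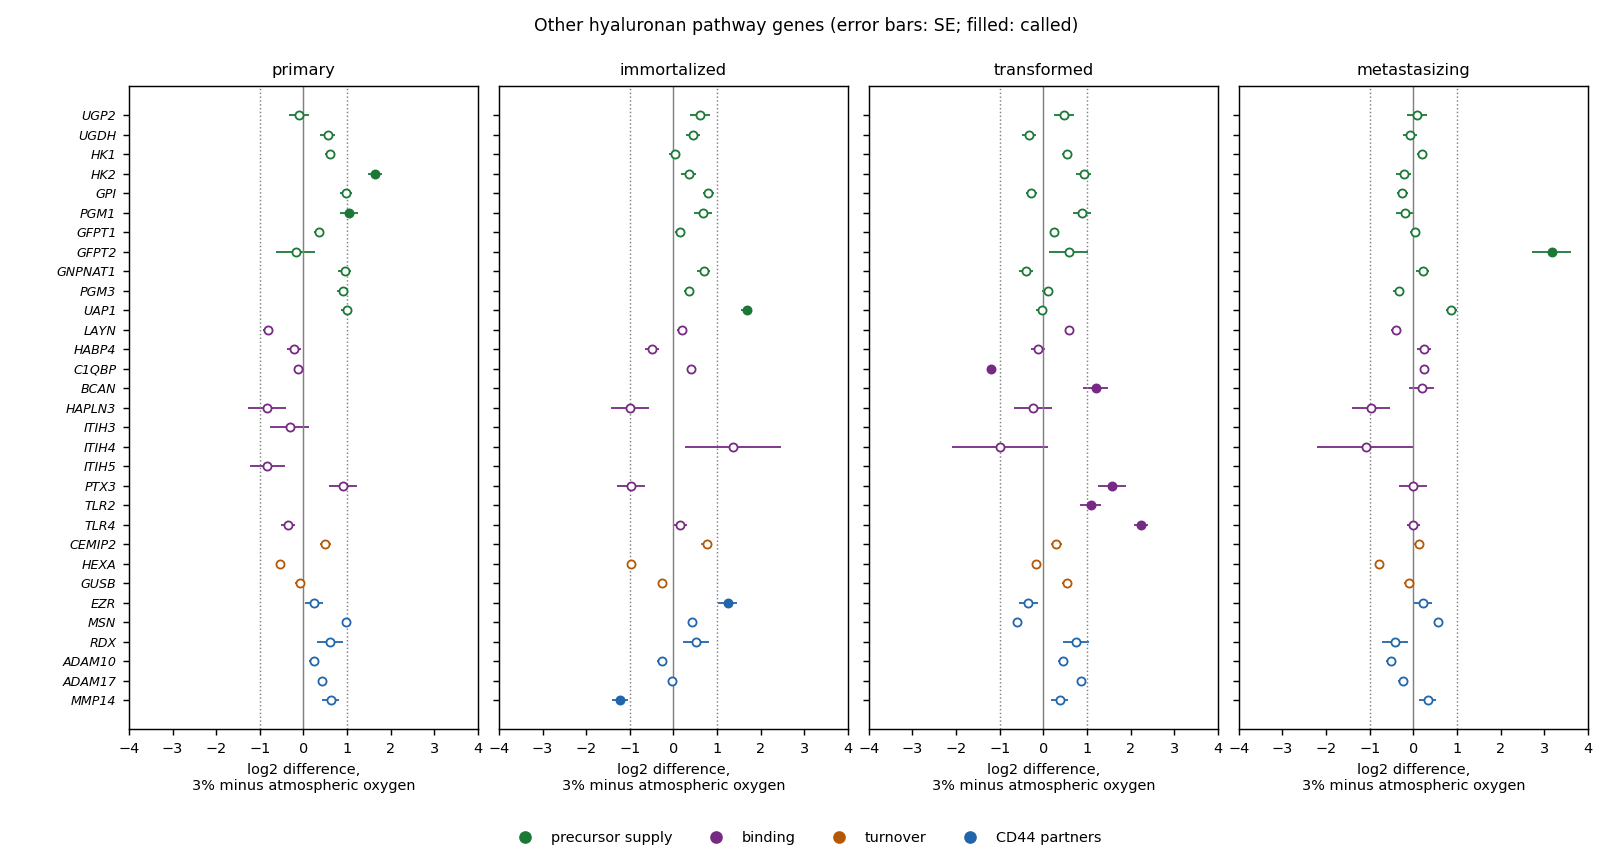
Difference between 3% and atmospheric oxygen on the log2(TPM + 0.5) scale (x axis) for 31 other genes of the pathway (y axis), coloured by role, in the 4 stages (panels). Error bars are the SE, dotted lines mark 2-fold and filled points were called, 11 in all. UAP1 is at 1.68 in immortalized and TLR4 at 2.24 in transformed cells, while GFPT2 in metastasizing-labelled cells lies farther out than both.

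For the members tested, the 3 protein-coding genes of the most similar pattern were found by Pearson r over the 8 group means, among 13146 genes and with no test. GAPDH (0.976), ADK (0.968) and GXYLT1 (0.947) were closest to HAS2, and SORBS3 (0.948), IGF1R (0.947) and SLC35D1 (0.943) to CD44. TCIM (0.982), HMGN5 (0.977) and XCR1 (0.971) were closest to CEMIP, and EDEM2 (0.971), SLC38A6 (0.970) and SLC2A12 (0.965) to TNFAIP6. C4orf46 (0.979), PTCD3 (0.977) and ENSG00000268750 (0.971) were closest to HMMR, and MYADM (0.979), SAMD5 (0.970) and GAP43 (0.969) to VCAN. The values for HYAL2 (G6PC3, ARF1 and CFAP157), HYAL3 (CNTROB, RAD9B and ZNF341) and HAS3 (TAFA2, FAM47E and COQ2) lay between 0.875 and 0.963. These values describe likeness over 8 points only.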

How the data were processed

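RNA of 16 libraries from duplicate plates of BJ-derived lines at 4 stages and 2 oxygen levels was prepared with a stranded poly-A kit. Per the labels and the methods of the study, the authors quantified transcripts with kallisto 0.42.1 on GRCh37 and deposited TPM values per transcript, 1 column per library. Of 180253 transcripts, 151453 matched GENCODE 44 mapped to GRCh37, which covers 88.2% to 90.1% of each library. They were summed to 34451 genes.

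The 10 members, the lists of other pathway genes and markers, and the tests were chosen with earlier results of these data known. Log2(TPM + 0.5) values of all libraries were fitted with limma 3.58.1 in R 4.3.3, with 1 coefficient per group and a mean-variance trend. Genes tested were protein-coding and averaged 1 TPM or more in a compared group, p-values were adjusted by Benjamini-Hochberg over all of them, and calls needed an adjusted p under 0.01 and more than 2-fold. The 13 comparisons were oxygen within each stage (4), neighbouring stages at each oxygen level (6) and the difference of the oxygen response between neighbouring stages (3). An exact permutation test of 2 against 2 libraries cannot go below p = 0.333, so none was used. TPM gives no depth, so no counting interval was made. Genes named were the 10 members, every called gene of the pathway list (1 of them is counted but not reported here) and the 3 genes closest to each tested member. The procedure was tested on simulated data. Alternatives were the pseudocount (0.1 and 1), the filter (none and 5 TPM), scaling, the trend, the libraries fitted, a replicate block and leaving out each library. Python 3.11.15 was used for tables and sequences.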

Additional observations from a re-analysis of the deposited data

Results flagged for a closer look

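The oxygen response of 4 members differed between neighbouring stages by a test of the difference itself. From primary to immortalized cells the response of HAS2 differed by -1.76, a value that uses the primary comparison known beforehand and whose call was lost in 12 of 16 fits without 1 library. From immortalized to transformed cells the response of HAS2 differed by -3.16, that of HMMR by -1.53 and that of TNFAIP6 by 2.82. From transformed to metastasizing-labelled cells the response of CD44 differed by 1.16. All values are differences on the log2(TPM + 0.5) scale, and groups of 2 libraries are too small to single out a library.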

How the results depend on the processing

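Of 109 member differences tested, 23, of which 0 were called, changed sign in some setting, such as CD44 between oxygen levels in immortalized cells (to -0.05), TNFAIP6 in transformed cells (-0.54 to 0.67) and HAS2 from primary to immortalized cells at 3% oxygen (to -0.07). Of 22 calls, 10 held in every setting. The calls counted here include HAS2 between oxygen levels in primary cells, which was known when the genes were chosen, and its oxygen response from primary to immortalized cells, which rests on it. They also include the HAS2 step from primary to immortalized cells at atmospheric oxygen, which shares libraries with that comparison. Members were called between oxygen levels 5 times, 3 times when only the libraries compared were fitted (a fit that called no gene at all in primary cells) and 4 to 8 times when 1 library was left out. Differences of the oxygen response were called 5 times for members, and 2 to 9 times when 1 library was left out. Stage calls of members numbered 12, and 9 to 15 without 1 library. Other pathway genes were called between oxygen levels 12 times, 4 times with only the libraries compared and 7 to 13 times without 1 library. Without both libraries labelled metastasizing at 3% oxygen, an alternative chosen after seeing the data, members were called 5, 13 and 5 times between oxygen levels, between stages and in the oxygen response, against 4, 11 and 4 times in the same comparisons with all libraries. Those gained were CEMIP in primary cells and in the immortalized oxygen response, and VCAN at the first and second stage steps at atmospheric oxygen. With a replicate block members were called 5, 11 and 4 times and other pathway genes 7 times between oxygen levels and 30 times between stages. HAS2 then lost its call in the immortalized oxygen response (adjusted p = 0.0485) and CEMIP from primary to immortalized cells at 3% oxygen (adjusted p = 0.0141). The block lowered calls over all genes from 646 to 359 in primary, from 592 to 328 in immortalized and from 941 to 541 in metastasizing-labelled cells. Nothing links the letters of plates across conditions, and libraries of 1 letter had correlations of -0.155 to 0.226. Crossing the letters gave 400 calls in primary cells and 2930 from immortalized to transformed cells at atmospheric oxygen, where 3016 were called without a block. Rescaling by median ratios moved the median of all genes at the step to transformed cells at atmospheric oxygen from 0.22 to -0.01, and between oxygen levels from 0.08 to -0.04 in primary, from 0.11 to -0.03 in immortalized and from -0.13 to -0.01 in metastasizing-labelled cells. TPM holds no depth, so low values such as those of HAS1 and HAS3 have an unknown counting error.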

Other observations

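Beside the members, 13 other genes of the pathway had an oxygen response that differed between neighbouring stages, 20 times in all over 90 tests. From immortalized to transformed cells 10 of 30 were called (12.0% of all genes). TLR4 (2.09), PTX3 (2.56) and MMP14 (1.60) had a higher response in transformed cells, and C1QBP (-1.60), UAP1 (-1.72), EZR (-1.59), GPI (-1.08), GNPNAT1 (-1.10) and MSN (-1.02) a lower one. From transformed to metastasizing-labelled cells 7 of 30 were called (8.47% of all genes), with C1QBP (1.46) and TLR4 (-2.23) each in the opposite direction to the step before, MSN (1.16) likewise, and HK2 (-1.15), ADAM17 (-1.11) and LAYN lower. Both steps share the transformed libraries, so values of opposite sign are not independent of each other.

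From primary to immortalized cells 3 of 30 were called (1.86% of all genes). The response of MMP14 (-1.85) and HK2 (-1.30) was lower in immortalized cells and that of LAYN, which encodes the hyaluronan receptor layilin, was higher (1.01).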
